A study of Mus musculus with 6 samples.

Results

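The 6 genes described here, Fth1, Ftl1, Ncoa4, Tfrc, Slc39a14 and Mt1, store iron, release it from storage, carry it into the cell or bind metal ions. They were chosen by gene name, whatever their values. The deposited transcript table holds 10 transcripts named for them, out of 15113 transcripts at 7171 loci, and 4 further transcripts lie at the same loci. All 14 transcripts and all 6 loci passed the filter on low values (at least 1 FPKM in at least 2 libraries). FPKM is a fragment number corrected for how long the transcript is and how much was mapped in total, so it can be compared between transcripts of different length.

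RNA was sequenced from C17.2 cells, an established line of multipotent mouse neural stem cells, in 3 groups. Heme-treated cells received heme, the iron-porphyrin of hemoglobin, with dose, time and medium not given in the sources used here. Neural induction cells were kept in Knockout DMEM with GlutaMAX, N2 supplement and the neurotrophin BDNF at 10 ng/ml, for a time that is likewise not given. Control cells grew in DMEM/F12 with serum. All groups are the same line, whose strain of origin is given as CD1 x C57BL/6, with no allele or transgene named as differing between groups. The labels give 2 biological replicates per group, with nothing further on how they were separated, so p-values measure the spread between these samples, which may be partly technical.

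Cells keep iron inside ferritin, a hollow shell built of heavy chains (Fth1), which oxidize iron, and light chains (Ftl1), which help it to mineralize. NCOA4 carries ferritin to the lysosome, where the iron is freed. Iron enters as transferrin through the transferrin receptor (Tfrc), or unbound to transferrin through ZIP14 (Slc39a14), which also carries zinc and manganese. Iron-poor cells let iron regulatory proteins bind hairpins called iron-responsive elements, which blocks translation of ferritin mRNA and protects Tfrc mRNA from decay. Heme that is broken down by heme oxygenase releases iron. Metallothionein 1 (Mt1) binds zinc, copper and cadmium through its cysteines, and its gene is switched on by the metal-sensing factor MTF1.

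The iron-responsive elements are shown because iron regulatory proteins bind such hairpins, and because the transcripts of Tfrc differ in having them. A search of the GENCODE M21 transcripts (GRCm38) looked for an unpaired C, a stem of 5 bases, the loop CAGTGN with any last base but G, and a stem paired to the first. It found 1 element in the 5′ untranslated region of Fth1 (chr19:9982732-9982760, plus strand) and 1 in that of Ftl1 (chr7:45459779-45459807, minus strand). Tfrc-201 holds 4 in its 3′ untranslated region (chr16:32631219-32631247, chr16:32631598-32631626, chr16:32631663-32631691 and chr16:32631710-32631738, plus strand). Capitals mark the loop.
Fth1 element: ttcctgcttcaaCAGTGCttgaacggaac
Ftl1 element: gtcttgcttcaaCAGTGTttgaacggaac
Tfrc element 1: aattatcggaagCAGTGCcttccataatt
Tfrc element 2: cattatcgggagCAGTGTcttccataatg
Tfrc element 3: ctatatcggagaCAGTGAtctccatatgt
Tfrc element 4: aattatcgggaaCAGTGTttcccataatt

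The ferritin elements share the stem around the loop, whereas each Tfrc element has its own. The same 4 Tfrc elements lie in Tfrc-204, a retained-intron transcript, and none was found in Tfrc-202 or Tfrc-203, which end before that exon. None was found in Mt1, Ncoa4 or Slc39a14. Of 58797 protein-coding transcripts searched in the same way, 426 (0.725%) held at least 1 match and 2 held 2 or more. A match is a description of the sequence and does not show binding, nor does the lack of a match exclude it.

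The 2 heme columns hold 1 set of measurements: across 13963 transcripts, heme replicate 2 equalled heme replicate 1 times a factor between 1.25 and 1.5 (mean 1.37, SD 0.0722). They were counted as 1 sample, and replicate 1 was used, so the heme group has no replicate spread of its own. Depth in the 5 columns used was 4.14 to 4.56 gigabases of mapped sequence. The control replicates differed from each other by a median of 0.21 on the log2 scale over the tested loci, and the neural induction replicates by 0.10. Of the neural stem markers searched for, Nes, Sox2 and Vim were listed, 3 of 8, with a summed level of 876 FPKM in heme cells, 882 and 896 FPKM in neural induction cells, and 898 and 771 FPKM in control cells. Erythroid (7), macrophage (5), endothelial (3) and astrocyte (4) markers had none listed. The neuronal markers Tubb3 and Map2 summed to between 21.8 and 32.6 FPKM, and 4 of 5 mesenchymal markers, collagens among them, to between 2071 and 2835 FPKM.

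No member locus passed the test in any comparison. Log2 fold changes come from limma on log2(FPKM + 1), fitted on all 7039 tested loci with Benjamini-Hochberg adjustment and a threshold of 0.05. Against control, 0 of the 6 loci passed with heme, where 0.0426% of all loci tested did, and 0 of 6 with neural induction, where 0.0142% did. Between heme and neural induction, 0 of 6 passed, against 0.0568% of all loci. At an unadjusted p below 0.05 none of the 6 passed either, against 3.59%, 3.05% and 3.38% of all loci in these 3 comparisons. With 5 libraries and 2 residual degrees of freedom, the 95% intervals below show how large a difference these data leave room for. The lone heme library was assumed to vary like those of the other groups. In RNA from whole cultures, fewer cells of a type and less RNA per cell cannot be told apart.

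**Figure D1:**
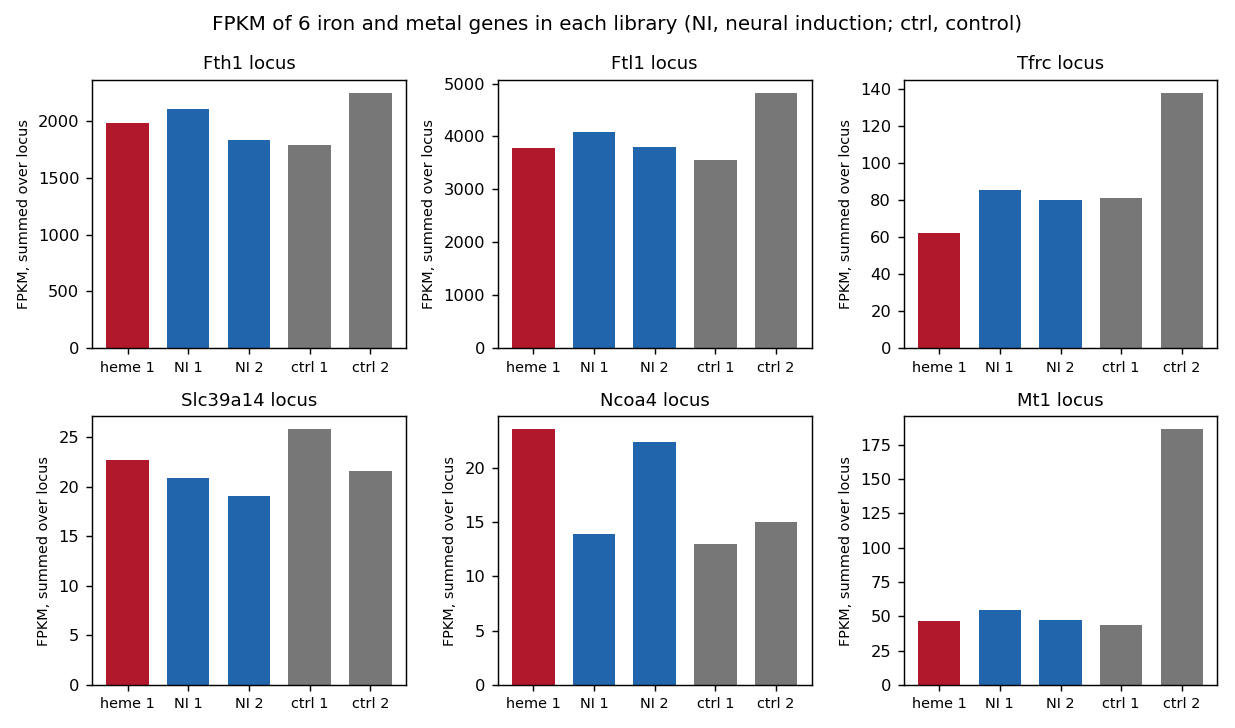
Summed FPKM (vertical axis, starting at 0) at each of the 6 loci in every library, with heme left, neural induction (NI) in the middle and control (ctrl) right; each bar is 1 library. Control replicate 2 stands highest for Fth1, Ftl1, Tfrc and Mt1, the last at 186 FPKM against at most 54.5 FPKM elsewhere, while heme is lowest for Tfrc (61.9 FPKM) and highest for Ncoa4 (23.5 FPKM).

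Ferritin mRNA was among the most abundant in these cells and lay at nearly the same level in each group. Fth1, the heavy chain (chr19:9982703-9985092, plus strand, 4 exons), was at 1981 FPKM in heme cells, at 2104 and 1834 FPKM in neural induction cells, and at 1792 and 2251 FPKM in control cells. It ranked 20th among all loci by its mean over the 5 libraries. The 2 control libraries were the lowest and the highest, and the other groups lay between them. The means were 1969 ± 191 FPKM in neural induction cells and 2022 ± 325 FPKM in control cells (SD, n = 2 each). For heme the log2 fold change was -0.02 ± 0.18 (SE) (limma, adjusted p = 0.998; 95% interval -0.50 to 0.46). For neural induction it was -0.03 ± 0.15 (limma, adjusted p = 0.987; 95% interval -0.43 to 0.36). Without control replicate 2 these values were 0.14 and 0.13, and without control replicate 1 they were -0.18 and -0.20.

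Ftl1, the light chain (chr7:45457945-45459886, minus strand, 4 exons), was at 1535 FPKM in heme cells, at 1753 and 1536 FPKM in neural induction cells, and at 1425 and 1973 FPKM in control cells. The control libraries again bracketed the others. Its log2 fold change as a transcript was -0.13 ± 0.24 for heme and -0.03 ± 0.19 for neural induction (limma, adjusted p = 0.978 and 1). Its locus also carries Gm22133 (chr7:45458089-45458197, minus strand), annotated as a miRNA of 109 bases that lies inside exon 4 of Ftl1 and partly overlaps its coding sequence. Gm22133 was listed at 2251 FPKM in heme cells, at 2334 and 2275 FPKM in neural induction cells, and at 2125 and 2858 FPKM in control cells, which was 57.1% to 59.9% of the locus sum. Reads of the 2 overlapping features cannot be told apart in these values, so the level of Ftl1 itself is uncertain, and a length of 109 bases makes FPKM unstable. The locus sum had log2 fold changes of -0.13 ± 0.21 for heme and -0.07 ± 0.17 for neural induction (limma, adjusted p = 0.998 and 0.970), and of 0.09 and 0.15 without control replicate 2.

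The balance of the ferritin chains is known to differ between tissues, since heavy-chain-rich shells take up iron faster. The Fth1 to Ftl1 ratio of FPKM was 1.29 in heme cells, 1.20 and 1.19 in neural induction cells, and 1.26 and 1.14 in control cells. Between neural induction (1.20 ± 0.00428) and control (1.20 ± 0.0825; SD, n = 2 each) the exact two-sided permutation test gave p = 1, and 0.333 is the smallest p that 6 arrangements allow. The overlap with Gm22133 affects this ratio too.

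Ncoa4, the ferritin cargo receptor, was highest in the heme library. The locus was at 23.5 FPKM in heme cells, at 13.9 and 22.3 FPKM in neural induction cells, and at 12.9 and 15.0 FPKM in control cells. The heme value was 1.82 times that of control replicate 1 and 1.57 times that of control replicate 2, while 1 of the neural induction libraries lay near heme and the other within the control range. The log2 fold change for heme was 0.72 ± 0.31, with a 95% interval of -0.10 to 1.53, and did not pass (limma, unadjusted p = 0.0726, adjusted p = 0.998). Of all tested loci, 8.20% had a larger absolute difference. For neural induction it was 0.32 ± 0.25 (limma, adjusted p = 0.935), and it was -0.0061 without neural induction replicate 2 and 0.64 without neural induction replicate 1. The neural induction replicates differed by 0.65 on the log2 scale, and 10.2% of tested loci differed by more.

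Most Ncoa4 signal came from 1 of its 2 transcripts in every library. Ncoa4-201 (chr14:32165791-32179247, plus strand, 10 exons) was at 22.8 FPKM in heme cells, at 12.1 and 21.6 FPKM in neural induction cells, and at 11.5 and 10.2 FPKM in control cells. Its log2 fold change was 1.01 ± 0.40 for heme and 0.54 ± 0.33 for neural induction, and neither passed. Ncoa4-202 (chr14:32159865-32179855), which starts further upstream, was at 0.713 FPKM in heme cells, at 1.74 and 0.707 FPKM in neural induction cells, and at 1.47 and 4.79 FPKM in control cells. Ncoa4-201 therefore took 97.0% of the locus in heme cells, 87.5% and 96.8% in neural induction cells, and 88.6% and 68.0% in control cells. The shift of 18.6 percentage points between heme and the control mean was smaller than the 20.6 points between the control libraries. Such shares rest on how StringTie divides reads over shared exons.

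Tfrc, the transferrin receptor, was lowest in the heme library and spread widely within control. The locus was at 61.9 FPKM in heme cells, at 85.5 and 79.9 FPKM in neural induction cells, and at 81.2 and 138 FPKM in control cells. Heme lay below all 4 other libraries, and it was the lowest or the highest library at 33.4% of all loci tested. It was at 0.762 times control replicate 1 and 0.449 times control replicate 2. The neural induction libraries lay on either side of control replicate 1. The log2 fold change for heme was -0.76 ± 0.32 (95% interval -1.62 to 0.09; limma, unadjusted p = 0.0695, adjusted p = 0.998), and -0.39 without control replicate 2. For neural induction it was -0.35 ± 0.26 (limma, adjusted p = 0.935), and 0.02 without control replicate 2. The control libraries differed by 0.76 on the log2 scale, and 9.85% of tested loci differed by more.

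The transcripts of Tfrc did not run in parallel. Tfrc-201 (chr16:32608920-32632794, plus strand, 19 exons, 4890 bases), which encodes the receptor and carries the 4 iron-responsive elements printed above, was at 34.2 FPKM in heme cells, at 51.2 and 50.2 FPKM in neural induction cells, and at 60.8 and 110 FPKM in control cells. The 3 groups did not overlap, as was the case for 17.6% of all transcripts tested. Its log2 fold change for heme was -1.24 ± 0.38 (95% interval -2.28 to -0.19; limma, unadjusted p = 0.0306, adjusted p = 0.880). It was -0.81 without control replicate 2. For neural induction it was -0.68 ± 0.31 (95% interval -1.54 to 0.18; limma, adjusted p = 0.938), and -0.26 without control replicate 2. Of the 10 named transcripts, 0 passed in any comparison, while 0.0728% of the 13737 transcripts tested passed for heme against control, 0.00728% for neural induction against control and 0.0801% for heme against neural induction. At an unadjusted p below 0.05 these were 1, 0 and 1 of the 10, against 4.95%, 4.98% and 4.96% of all transcripts.

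Tfrc-202 (chr16:32608983-32623741, 13 exons, 1860 bases), which stops before the exon with the elements, was at 16.6 FPKM in heme cells, at 25.3 and 21.7 FPKM in neural induction cells, and at 13.7 and 18.3 FPKM in control cells. Heme lay within the control range, and both neural induction libraries lay above it. Against control it had a log2 fold change of 0.07 ± 0.26 for heme and of 0.54 ± 0.21 for neural induction (limma, adjusted p = 0.997 and 0.938). Tfrc-204 (chr16:32624442-32632790), which covers the last part of the gene with an intron kept and has no annotated coding sequence, was at 9.29 FPKM in heme cells, at 6.08 and 5.44 FPKM in neural induction cells, and at 4.12 and 4.25 FPKM in control cells. It ran in the order opposite to Tfrc-201, again without overlap, with a log2 fold change of 0.99 ± 0.43 for heme (limma, adjusted p = 0.978) and 0.38 ± 0.35 for neural induction. Tfrc-203, of 166 bases, stayed between 1.84 and 5.10 FPKM.

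The ratio of Tfrc-201 to Tfrc-202 was 2.06 in heme cells, 2.02 and 2.31 in neural induction cells, and 4.45 and 6.02 in control cells. Heme and neural induction thus lay close together, below both controls, also with control replicate 1 alone. The mean was 2.17 ± 0.204 in neural induction and 5.24 ± 1.11 in control (SD, n = 2 each), and the exact two-sided permutation p was 0.333, the smallest that 2 against 2 can give. Tfrc-201 made up 55.2% of the locus in heme cells, 59.9% and 62.9% in neural induction cells, and 74.8% and 79.9% in control cells. Shifts of this size were common in the table: of 3629 loci with 2 or more listed transcripts and a mean of at least 5 FPKM, 38.5% moved by more than the 22.2 points of Tfrc between heme and the control mean, and the median was 15.2 points. Tfrc-201 and Tfrc-202 share most of their exons, so their split is StringTie's estimate.

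**Figure D2:**
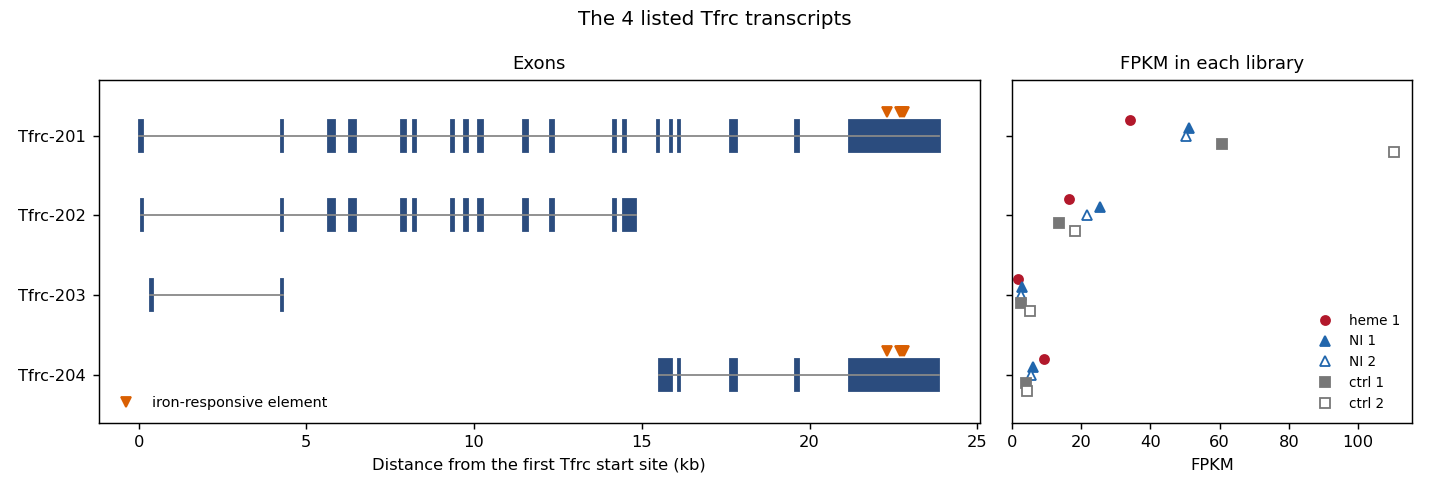
Exons of the 4 listed Tfrc transcripts against distance from the first start site in kb (left), with the iron-responsive elements as triangles, and the FPKM of each transcript in every library (right; circle heme, triangles neural induction, squares control). The elements lie in the last exon, which Tfrc-201 and Tfrc-204 have and Tfrc-202 and Tfrc-203 lack, and heme is lowest for Tfrc-201 (34.2 FPKM) and highest for Tfrc-204 (9.29 FPKM).

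Slc39a14, the importer of iron not bound to transferrin, had a steady locus total. It was at 22.7 FPKM in heme cells, at 20.8 and 19.0 FPKM in neural induction cells, and at 25.8 and 21.6 FPKM in control cells. Heme lay within the control range and both neural induction libraries below it. The log2 fold change was -0.06 ± 0.16 for heme (95% interval -0.49 to 0.38; limma, adjusted p = 0.998) and -0.24 ± 0.13 for neural induction (95% interval -0.59 to 0.12; limma, adjusted p = 0.935). The heme value was 0.07 without control replicate 1 and -0.18 without control replicate 2.

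Within that total, the transcripts were divided differently in the heme library. Slc39a14-202 (chr14:70303469-70351425, minus strand, 10 exons), the named coding transcript, was at 14.5 FPKM in heme cells, at 6.88 and 6.85 FPKM in neural induction cells, and at 6.24 and 8.07 FPKM in control cells. An assembled transcript with no gene name at the same locus (chr14:70305134-70351415, 9 exons, 3153 bases) was at 5.23 FPKM in heme cells, at 10.9 and 10.6 FPKM in neural induction cells, and at 15.3 and 13.6 FPKM in control cells. Heme was the highest of the 5 libraries for Slc39a14-202 and the lowest for the unnamed transcript. It was at one end or the other for 35.3% of all transcripts tested.

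For heme against control, the log2 fold change of Slc39a14-202 was 0.93 ± 0.35 (limma, unadjusted p = 0.0551, adjusted p = 0.978) and that of the unnamed transcript -1.30 ± 0.27 (95% interval -2.05 to -0.56; limma, unadjusted p = 0.00820, adjusted p = 0.566). The p of the unnamed transcript was the lowest adjusted p of the 14 transcripts at the 6 loci for heme against control, and it did not pass. Slc39a14-202 took 63.8% of the locus in heme cells, 33.0% and 36.0% in neural induction cells, and 24.2% and 37.3% in control cells. The unnamed transcript took 23.1% in heme cells, 52.4% and 55.8% in neural induction cells, and 59.2% and 62.7% in control cells. Its share differed most between heme and the control mean, by 37.9 points, and at 19.5% of the 3629 loci the most shifted transcript differed by more. Between the control libraries the shares of this locus differed by up to 15.0 points. The remaining 2 assembled transcripts were low, at most 3.87 FPKM, and both were listed at 0 in control replicate 2.

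**Figure D3:**
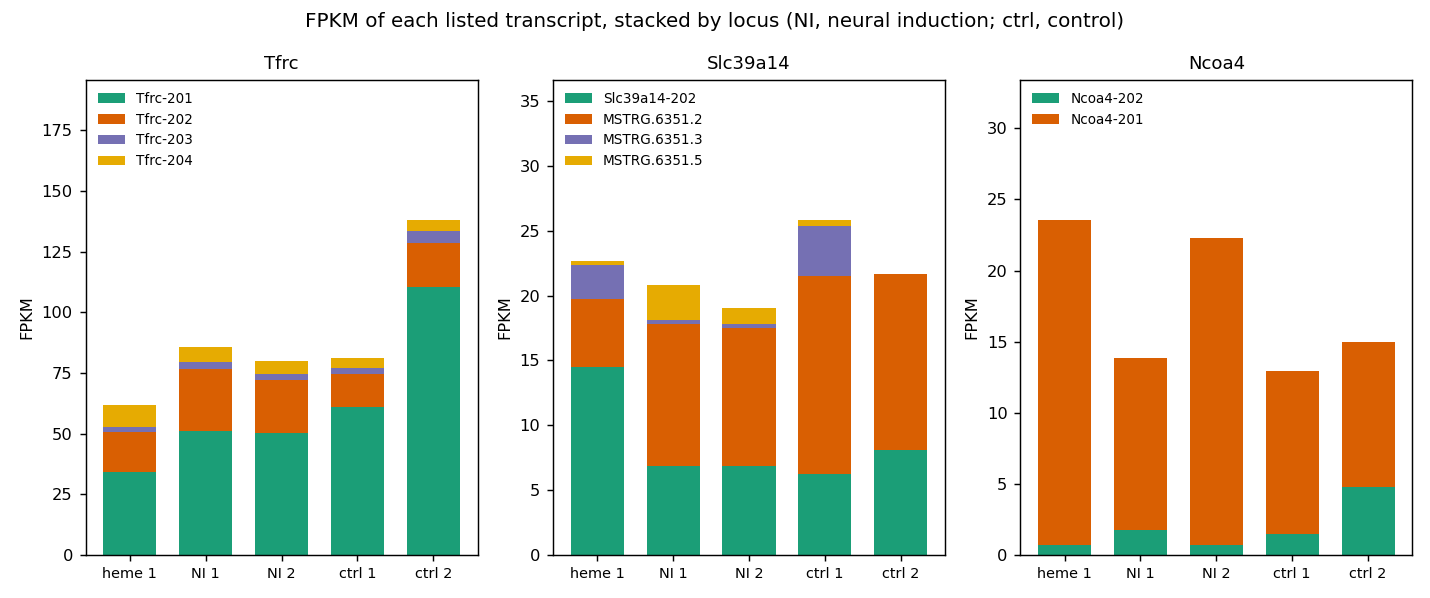
FPKM of every listed transcript, stacked by locus, in each library (vertical axes start at 0), with heme left, then neural induction (NI), then control (ctrl). Slc39a14-202 is at 14.5 FPKM in heme and at most 8.07 FPKM elsewhere at a locus whose total stays between 19.0 and 25.8 FPKM, and Ncoa4-201 makes up most of Ncoa4 in every library.

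Mt1, metallothionein 1 (chr8:94179089-94180325, plus strand, 3 exons), was high in 1 library only. It was at 46.7 FPKM in heme cells, at 54.5 and 47.0 FPKM in neural induction cells, and at 43.9 and 186 FPKM in control cells. The heme and neural induction libraries lay close to control replicate 1, and control replicate 2 stood at 4.24 times its level. That gap, 2.06 on the log2 scale, was exceeded at 1.43% of tested loci. Neural induction averaged 50.8 ± 5.30 FPKM and control 115 ± 101 FPKM (SD, n = 2 each). Its log2 fold change was -0.94 ± 0.85 for heme (95% interval -3.21 to 1.33; limma, adjusted p = 0.998) and -0.83 ± 0.70 for neural induction (95% interval -2.68 to 1.03; limma, adjusted p = 0.935). Without control replicate 2 these were 0.09 and 0.20.

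The stretch around the annotated start of Mt1 is shown because Mt1 had the widest library-to-library range of the 6 genes. Metal-responsive elements, the sites of MTF1, are also a known feature of its promoter. The 250 bases before the start (RefSeq, GRCm38.p6, chr8:94178839-94179088, plus strand) and a stretch just after it (chr8:94179090-94179116) are printed with matches to TGCACNC or TGCGCNC, searched on both strands, in capitals.
Mt1 before the start: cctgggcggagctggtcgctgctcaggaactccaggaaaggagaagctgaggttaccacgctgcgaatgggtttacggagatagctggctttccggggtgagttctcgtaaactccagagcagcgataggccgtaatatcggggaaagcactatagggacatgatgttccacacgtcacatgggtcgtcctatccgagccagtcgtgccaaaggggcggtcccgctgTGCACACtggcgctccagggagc
Mt1 after the start: cTGCACTCcgcccgaaaagTGCGCTCg

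With 50 bases after the start included, Mt1 had 3 matches. Of 32851 RefSeq promoters of that length, 1.97% held 3 or more, 7.11% held 2 or more and 25.7% held at least 1. Bases further into the gene were not searched, so elements outside this window are not counted. Of the other members with a promoter in the table, Tfrc had 2 in 1 of its 2 windows, Ncoa4 had 1 in 1 of its 3, and Fth1 and Ftl1 had none. Slc30a1, the zinc exporter and another gene that MTF1 is known to drive, had 2. It was at 0.865 FPKM in heme cells, at 1.15 and 0.925 FPKM in neural induction cells, and at 1.08 and 3.70 FPKM in control cells, so control replicate 2 was again highest. Slc30a1 was picked after its values were seen, and its mean of 1.54 FPKM is below the 5 FPKM set for named genes. Of the 13 metal genes tested as a list, Slc30a1 among them, 7 were higher in control replicate 2 than in control replicate 1. The same held for 48.1% of all tested loci. Whether MTF1 plays a part was not tested.

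**Figure D4:**
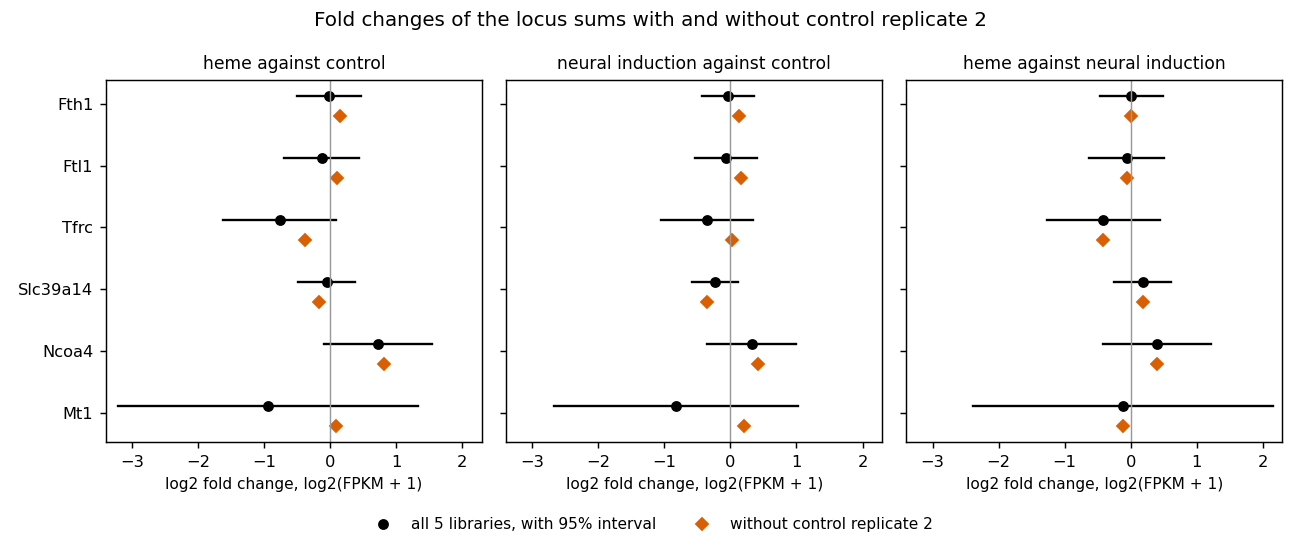
Log2 fold changes on log2(FPKM + 1) (horizontal axis) of the 6 locus sums, for heme against control (left), neural induction against control (middle) and heme against neural induction (right), with all 5 libraries and without control replicate 2; bars are 95% intervals of the full fit. All intervals include 0, and Mt1 is at -0.94 for heme and -0.83 for neural induction with all libraries, and at 0.09 and 0.20 without control replicate 2.

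Set directly against neural induction, heme gave log2 fold changes of 0.01 ± 0.18 for Fth1, -0.06 ± 0.21 for the Ftl1 locus, 0.40 ± 0.31 for Ncoa4, -0.41 ± 0.32 for Tfrc, 0.18 ± 0.16 for Slc39a14 and -0.11 ± 0.85 for Mt1 (limma, adjusted p = 1 for each). The Ncoa4 value was 0.074 without neural induction replicate 1 and 0.72 without neural induction replicate 2, and that of Slc39a14 0.12 without neural induction replicate 2. The comparison of heme with neural induction and those with control share libraries, so their values are not independent. At transcript level, Slc39a14-202 was at 0.98 ± 0.35 (limma, adjusted p = 0.992) and the unnamed Slc39a14 transcript at -0.92 ± 0.27 (limma, adjusted p = 0.854).

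The 6 genes differed in how widely they spread over the libraries. From the lowest to the highest library, Fth1 spanned a factor of 1.26, Ftl1 and Slc39a14 1.36 each, Ncoa4 1.82, Tfrc 2.23 and Mt1 4.24. On the log2 scale 57.5% of all tested loci ranged more widely than Fth1, 13.6% more widely than Tfrc and 3.89% more widely than Mt1. Control replicate 2 was above control replicate 1 in 5 of the 6, all but Slc39a14, and in 48.1% of all tested loci. By level, Ftl1 and Fth1 stood far above the rest, then came Tfrc and Mt1, and last Slc39a14 and Ncoa4. Tfrc and Mt1 are not separated within their spread, nor are Slc39a14 and Ncoa4.

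Other iron and metal genes were read as 8 lists of 89 genes, of which 51 were listed and tested, and 0 passed in any comparison (limma, lowest adjusted p = 0.939 for heme and 0.935 for neural induction, each set against control, and 0.610 when set against each other). Values are locus sums, which include assembled transcripts without a gene name. At 11 of the 51 loci the named transcripts took less than 50% of the sum in at least 1 library, among them Hmox1, Slc11a2, Steap2, Neo1, Cisd2, Slc39a13 and Slc30a9. In storage and release, 3 of 4 genes were tested, with a median log2 fold change of -0.02 for heme and 0.05 for neural induction, against -0.0035 and 0.02 over all loci. Pcbp1, an iron chaperone that loads ferritin, was at 163 FPKM in heme cells, at 179 and 171 FPKM in neural induction cells, and at 166 FPKM in each control library. Pcbp2, its close relative, was at 193 FPKM in heme cells, at 199.6 and 194 FPKM in neural induction cells, and at 192 and 188 FPKM in control cells. Both lay close together in all 5 libraries.

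In uptake, 3 of 8 genes were tested, and the medians were 0.05 for heme and 0.26 for neural induction. Slc11a2, the divalent metal transporter DMT1 that moves iron out of endosomes, was at 2.73 FPKM in heme cells, at 7.34 and 8.73 FPKM in neural induction cells, and at 6.83 and 6.26 FPKM in control cells. Heme was below every other library, with log2 fold changes of -1.02 ± 0.25 against control (limma, adjusted p = 0.939) and -1.27 ± 0.25 against neural induction (limma, adjusted p = 0.684). Its named transcripts alone were at 2.73 FPKM in heme cells, at 7.34 and 1.36 FPKM in neural induction cells, and at 6.83 and 6.26 FPKM in control cells, so neural induction replicate 2 was then the lowest. Steap2, a metalloreductase, was at 25.4 FPKM in heme cells, at 24.0 and 27.2 FPKM in neural induction cells, and at 11.5 and 28.4 FPKM in control cells, so control replicate 1 alone was low. Its named transcripts alone were at 9.95 FPKM in heme cells, at 9.59 and 7.39 FPKM in neural induction cells, and at 11.5 and 4.77 FPKM in control cells, with control replicate 1 the highest.

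Of the export genes only 1 of 4 was tested, Cp, the ferroxidase ceruloplasmin. It was at 40.0 FPKM in heme cells, at 39.4 and 40.4 FPKM in neural induction cells, and at 40.5 and 26.7 FPKM in control cells, with control replicate 2 low. In regulation, 4 of 9 were tested, with medians of 0.06 for heme and 0.09 for neural induction. Aco1, which encodes the iron regulatory protein IRP1, was at 18.0 FPKM in heme cells, at 17.9 and 17.7 FPKM in neural induction cells, and at 18.4 and 14.3 FPKM in control cells. Neo1, neogenin, a receptor that takes part in hepcidin control in liver, was between 19.3 and 20.5 FPKM in every library. Fbxl5, the iron-sensing subunit of the ligase that degrades iron regulatory proteins, is named after its values were seen and had a mean below 5 FPKM. It was at 5.80 FPKM in heme cells, at 4.70 and 2.91 FPKM in neural induction cells, and at 2.35 and 1.83 FPKM in control cells. The groups did not overlap, as at 17.2% of all loci tested, and its log2 fold change of 1.14 ± 0.41 for heme did not pass (limma, adjusted p = 0.998).

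Of the mitochondrial iron and iron-sulphur genes, 7 of 14 were tested and both medians were 0.01. Cisd2, an iron-sulphur protein of the endoplasmic reticulum and mitochondrial contacts, was at 10.9 FPKM in heme cells, at 13.0 and 11.8 FPKM in neural induction cells, and at 14.9 and 16.1 FPKM in control cells. Its named transcripts alone were at 10.9 FPKM in heme cells and at 13.0 and 6.84 FPKM in neural induction cells. In control cells they were at 5.94 and 16.1 FPKM, so control replicate 1 was then the lowest. Bola3, an assembly factor for such clusters, was at 9.60 FPKM in heme cells, at 9.43 and 8.76 FPKM in neural induction cells, and at 8.96 and 7.04 FPKM in control cells. Among metallothionein, zinc and copper genes, 13 of 25 were tested, with medians of 0.01 for heme and -0.03 for neural induction. Its named genes are the zinc transporters Slc39a11, Slc39a10, Slc39a13 and Slc30a9, with heme log2 fold changes of 0.63 ± 0.30, 0.29 ± 0.19, 0.07 ± 0.18 and -0.43 ± 0.46. Slc39a11, ZIP11, was at 7.56 FPKM in heme cells, at 4.91 and 5.46 FPKM in neural induction cells, and at 5.31 and 3.83 FPKM in control cells.

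Of the heme handling genes 9 of 13 were tested, with medians of -0.19 for heme and -0.20 for neural induction, which were 0.01 and 0.15 without control replicate 2. Hmox1, the inducible heme oxygenase, was at 61.9 FPKM in heme cells, at 79.4 and 46.2 FPKM in neural induction cells, and at 43.7 and 222 FPKM in control cells. Its named transcripts alone were at 12.4 FPKM in heme cells, at 77.6 and 44.9 FPKM in neural induction cells, and at 8.41 and 42.7 FPKM in control cells. Both neural induction libraries were then above both controls, whereas in the locus sum they lay within the control range. Hmox2, the constitutive form, was at 2.65 FPKM in heme cells, at 10.5 and 8.93 FPKM in neural induction cells, and at 5.34 and 6.88 FPKM in control cells. The groups did not overlap for Hmox2, as at 17.2% of all loci tested. Its log2 fold change for heme was -0.95 ± 0.27 against control (limma, adjusted p = 0.989) and -1.54 ± 0.27 against neural induction (limma, adjusted p = 0.610). Blvrb, a biliverdin reductase, was at 6.25 FPKM in heme cells, at 6.16 and 6.37 FPKM in neural induction cells, and at 6.70 and 16.9 FPKM in control cells.

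NRF2 is an oxidative stress factor known to drive ferritin genes. Like all members but Slc39a14, its tested targets were higher in control replicate 2 than in control replicate 1. Of 12 genes 11 were tested, with medians of -0.25 for heme and -0.23 for neural induction, which were 0.06 and 0.14 without control replicate 2. Control replicate 2 was above control replicate 1 for 11 of these 11, by a median factor of 1.73, where it was so for 48.1% of all tested loci. It was above for 8 of the 9 heme handling genes, 7 of the 13 metal genes, 2 of the 3 uptake, 2 of the 4 regulation, 3 of the 7 mitochondrial, 0 of the 3 storage and 0 of the 1 export genes. Srxn1, sulfiredoxin, was at 15.0 FPKM in heme cells, at 19.1 and 16.6 FPKM in neural induction cells, and at 16.1 and 40.6 FPKM in control cells. Osgin1 was at 8.03 FPKM in heme cells, at 4.74 and 7.95 FPKM in neural induction cells, and at 2.56 and 6.88 FPKM in control cells. The part of this library difference in the results for Tfrc and Mt1 was not tested.

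Loci with the pattern most like each member were found by the root mean square difference of log2(FPKM + 1), centred per locus, over the 5 libraries, among 5574 loci. Nearest to Mt1 was Gm11226 (0.109), then Hmox1 (0.22) and Nup62 (0.238), where the median over all loci was 0.798. Likeness was taken on locus sums. The named Hmox1 transcripts alone were highest in neural induction replicate 1, at 77.6 FPKM, where control replicate 2 was at 42.7 FPKM. Gm11226 was at 6.37 FPKM in heme cells, at 6.64 and 6.55 FPKM in neural induction cells, and at 6.83 and 28.6 FPKM in control cells. Nearest to Tfrc were Tnfrsf23 (0.029), Anapc11 (0.095) and Ggnbp2 (0.103), with a median over loci of 0.395. Nearest to Ncoa4 were Dnajb4 (0.054), Zbtb7a (0.086) and Erlec1 (0.104), with a median of 0.362. Dnajb4, a heat shock co-chaperone, was at 25.3 FPKM in heme cells, at 15.2 and 25.9 FPKM in neural induction cells, and at 14.6 and 18.1 FPKM in control cells, so it too had 1 neural induction library beside heme.

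The steadier genes had closer neighbours. These were Drg2 (0.0070), Pcbp3 (0.019) and the Eif4a2 locus (0.023) for Fth1, Zw10 (0.012), Psma7 (0.019) and Hells (0.019) for Ftl1, and the Ctdnep1 and Gabarap locus (0.036), Col27a1 (0.043) and Ide (0.055) for Slc39a14. The neighbours are given as a description, over 5 libraries and with no test.

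In the authors' deposited table for heme against control, no member transcript had an adjusted p below 0.05 after Benjamini-Hochberg adjustment of its p-values. Tfrc-201 was nearest in the authors' deposited table, with a log2 fold change of -0.85 and an adjusted p of 0.0672, and Slc39a14-202 had 1.18 and 0.390. In the authors' deposited table for neural induction, Ftl1-201 had 0.28 with an adjusted p of 0.00324 and Fth1 0.21 with 0.0338. Of all 15113 transcripts, 1094 had an adjusted p below 0.05 in the authors' deposited table for heme and 1088 in that for neural induction. Values in the authors' deposited tables lay within 0.1 of the log2 ratio of replicate 1 to control replicate 1 for 97.0% of 10699 transcripts for heme and 97.2% of 10742 for neural induction. Those ferritin values thus set neural induction replicate 1 against control replicate 1, the control library that was low for both ferritin genes, and no replicate spread stands behind them.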

How the data were processed

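The tools named in the submitters' processing notes are HISAT2, StringTie and edgeR, on GRCm38 (mm10), with no versions. The authors deposited FPKM and coverage per transcript and library, and tables of log2 fold changes, a likelihood ratio score and p-values per comparison. Coverage divided by FPKM, both as deposited, gave mapped bases per library. With no counts used here, no count model was run and no counting interval is given. Because heme replicate 2 is a multiple of replicate 1, the planned fit of 6 columns was replaced by 5 libraries, after the data were examined.

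Locus sums and transcripts were tested in limma 3.58.1 (R 4.3.3; trend) on log2(FPKM + 1), which understates changes of low genes. Features with at least 1 FPKM in 2 libraries were kept. The script was tested on simulated data. Genes and lists were chosen with earlier results of these data known. Named are all member transcripts, the 2 largest changes per list at a mean of at least 5 FPKM in each comparison with control, and the 3 nearest loci per member. Same-numbered libraries did not deviate together (r = -0.0151 over transcripts and -0.0513 over loci), so replicate numbers were not used as pairs.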

Additional observations from a re-analysis of the deposited data

How the results depend on the processing

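Values are log2 fold changes. Using all 6 columns or the mean of both heme columns raised the median of all loci for heme against control to 0.21 and 0.23 (transcripts 0.22 and 0.23), because heme replicate 2 is scaled up, so small values turned positive. These were 0.15 and 0.16 for Fth1, 0.11 and 0.13 for the Ftl1 locus, 0.073 and 0.087 for Ftl1-201, 0.14 and 0.17 for Gm22133 and 0.20 and 0.23 for the Slc39a14 locus. Against neural induction they were 0.18 and 0.20 for the Ftl1 locus, 0.10 and 0.12 for Ftl1-201, 0.24 and 0.26 for Gm22133 and 0.079 and 0.092 for Mt1. With all 6 columns, which count the heme library as 2 samples, 1 member locus passed for heme, Ncoa4 (0.89, limma adjusted p = 0.0424), and whole-table calls were 207, 51 and 210 loci and 417, 86 and 432 transcripts. Over that result's other alternatives adjusted p reached 1. Named transcripts alone gave Slc39a14 0.93.

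With the replicate number as a block, heme against control was 0.012 for Fth1 and -0.19 for an assembled Slc39a14 transcript, and heme against neural induction was 0.026 for the Ftl1 locus, 0.064 for Gm22133 and 0.35 for Mt1. The replicate block gave 4, 2 and 6 loci and 0 transcripts called, and no member. The numbers do not pair these libraries.

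Leaving out 1 library at a time, whole-table calls were 0, except 1 transcript for neural induction against control without heme replicate 1. Heme against control then ranged from -0.18 to 0.14 for Fth1, -0.35 to 0.093 for the Ftl1 locus, -0.36 to 0.11 for Ftl1-201, -0.34 to 0.083 for Gm22133, -0.18 to 0.066 for the Slc39a14 locus, -1.97 to 0.089 for Mt1 and -0.13 to 0.26 for Tfrc-202. The low assembled Slc39a14 transcripts ranged from -0.41 to 0.73 and -0.13 to 0.38. Neural induction against control ranged from -0.20 to 0.13 for Fth1, -0.29 to 0.15 for the Ftl1 locus, -0.27 to 0.20 for Ftl1-201, -0.31 to 0.12 for Gm22133, -0.73 to 0.024 for Tfrc, -0.0061 to 0.64 for Ncoa4, -1.86 to 0.20 for Mt1 and -0.21 to 0.12 for Slc39a14-202. Heme against neural induction ranged from -0.087 to 0.11 for Fth1 and -0.68 to 0.0049 for Ncoa4-202. No heme comparison can be made without heme replicate 1. Pseudocount 0.1, no filter and median-ratio scaling reversed no member.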
